A study of Rattus norvegicus with 6 samples.

Results

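Immediate early genes are transcribed within minutes of a stimulus, without need of new protein, because the factors that switch them on already sit in the cell. MAP kinase signalling acts on them through the serum response factor (SRF), which binds the CArG box, and through CREB, which binds the cAMP response element, and their messages are short-lived. Their products are largely transcription factors, among them the AP-1 dimers of FOS and JUN proteins and the zinc finger proteins of the EGR family, and in heart muscle they are known to respond to stretch, adrenergic drive and ischaemia. The genes described here were 10 members of this response: Fos, Fosb, Jun, Junb and Atf3 of the AP-1 and related leucine zipper proteins, Egr1, Egr2 and Egr3, the nuclear protein gene Ier2, and Dusp1, whose product removes the activating phosphates from MAP kinases. They were a given list of names. Each was read from the brightest probe set that carried its symbol alone, and all 10 were found among the 18166 genes with such a probe set.

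Rats of a Hlirag and a diabetic group were compared, with 3 Affymetrix Rat Gene 2.0 ST arrays from each and 6 in all. By the methods of the study, male Sprague–Dawley rats aged 5 weeks received a high-fat diet for 4 weeks and then streptozotocin (30 mg/kg), which destroys the insulin-producing cells. Both groups carried this diet and toxin, and for 12 weeks the Hlirag rats were then injected with the GLP-1 receptor agonist liraglutide at 0.4 mg/kg/day, whereas the diabetic rats were injected with saline. The labels call the first group liraglutide-treated without a dose, and give both groups an age of 17 weeks, to which the stages of this schedule do not add up. The study kept 6 rats in each group, but whether the 3 arrays of a group stand for separate rats is not given in the sources used here. The p-values below therefore speak of the spread among these samples only, and part of that spread may be technical. The deposited values are on the log2 scale, where a difference of 1 stands for a fold of 2.

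The labels name cardiac muscle as the tissue, but the titles begin with the word arota, and the description fields name adipose tissue of an unrelated study. The marker genes did not bear out heart muscle: on each array the cardiomyocyte markers averaged below the adipocyte, smooth muscle, fibroblast and endothelial markers. A background level of 5.60 was set at the 95th percentile of 67 olfactory receptor genes. Of the 12 measured markers of ventricular cardiomyocytes, 8 lay below it on Hlirag replicates 2 and 3 and on diabetic replicate 3. On Hlirag replicate 1, diabetic replicate 1 and diabetic replicate 2, 4, 1 and 5 of these markers did. Their mean level ran from 5.28 to 7.94 over the arrays, whereas the 8 adipocyte markers were high throughout, with means from 10.52 to 11.07. Diabetic replicates 1 and 2 also held skeletal muscle transcripts, whose 7 markers averaged 10.54 and 11.60 there against 5.02 to 5.22 on the other 4 arrays. Hlirag replicate 3 stood apart in the spread of its values: the SD over all genes was 1.52 on that array and 1.84 to 1.98 on the others, and the median of the olfactory receptor genes was 4.45 against 3.25 to 3.68. Levels in such bulk RNA cannot tell fewer cells of a type from less RNA per cell.

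Promoter windows from RefSeq (assembly GRCr8, 300 bases around the annotated start) were given for 6 of the 10 members, Fosb, Junb, Egr1, Egr2, Ier2 and Dusp1. Those of 5 of them are printed. Egr1, Egr2, Ier2 and Dusp1 carry a CArG box or a full cAMP response element, through which SRF and CREB are known to act. Junb holds no CArG box and only the shorter form of the cAMP response element. Capitals mark the matches of the CArG box, of the full cAMP response element TGACGTCA, of its shorter form TGACG, which the full element contains, and of the TATA element TATAAA, searched on both strands.
Junb, chr19:40080876-40081175, + strand: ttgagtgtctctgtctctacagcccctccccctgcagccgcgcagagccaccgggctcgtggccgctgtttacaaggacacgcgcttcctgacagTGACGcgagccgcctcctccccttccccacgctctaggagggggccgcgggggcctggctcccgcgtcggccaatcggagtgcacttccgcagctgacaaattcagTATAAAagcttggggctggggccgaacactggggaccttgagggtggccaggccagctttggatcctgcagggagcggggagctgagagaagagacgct
Egr1, chr18:26736828-26737127, + strand: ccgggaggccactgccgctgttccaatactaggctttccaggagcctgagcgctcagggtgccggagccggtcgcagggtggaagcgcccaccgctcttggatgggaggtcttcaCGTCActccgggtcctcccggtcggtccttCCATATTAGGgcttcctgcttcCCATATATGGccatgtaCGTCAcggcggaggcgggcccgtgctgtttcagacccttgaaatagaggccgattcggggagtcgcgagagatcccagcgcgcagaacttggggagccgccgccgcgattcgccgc
Egr2, chr20:21054392-21054691, - strand: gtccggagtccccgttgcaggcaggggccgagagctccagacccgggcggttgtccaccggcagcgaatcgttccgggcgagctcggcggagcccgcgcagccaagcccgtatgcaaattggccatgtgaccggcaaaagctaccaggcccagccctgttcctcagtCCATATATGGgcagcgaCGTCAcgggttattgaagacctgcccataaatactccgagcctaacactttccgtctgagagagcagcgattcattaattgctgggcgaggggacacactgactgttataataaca
Ier2, chr19:40399123-40399422, + strand: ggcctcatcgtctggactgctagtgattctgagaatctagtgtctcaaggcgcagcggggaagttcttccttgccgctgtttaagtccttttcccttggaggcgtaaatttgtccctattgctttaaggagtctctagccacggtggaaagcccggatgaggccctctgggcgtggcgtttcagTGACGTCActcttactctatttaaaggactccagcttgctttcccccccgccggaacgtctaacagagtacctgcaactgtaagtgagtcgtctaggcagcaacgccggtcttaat
Dusp1, chr10:17184603-17184902, + strand: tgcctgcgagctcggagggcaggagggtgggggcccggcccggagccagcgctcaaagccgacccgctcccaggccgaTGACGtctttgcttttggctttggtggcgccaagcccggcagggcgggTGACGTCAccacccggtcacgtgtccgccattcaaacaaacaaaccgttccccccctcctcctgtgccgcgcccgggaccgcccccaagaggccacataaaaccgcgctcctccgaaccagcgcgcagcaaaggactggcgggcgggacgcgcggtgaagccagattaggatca

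The CArG box was found in Egr1, at positions -105 to -96 and -83 to -74 from the start, and in Egr2, at -83 to -74, while 1.64% of the 33469 promoter windows of the assembly held one. The full cAMP response element stood at -66 to -59 in Ier2 and at -124 to -117 in Dusp1, and 1.83% of all windows held it. The short form TGACG was found in 5 of the 6 members, every one but Fosb, against 21.2% of all windows. TATAAA was found in Junb at -49 to -44 and, on the opposite strand, in Fosb at -180 to -175 (14.2% of all windows). The AP-1 element TGANTCA, taken with C or G at the N, was found in none of the 6 (4.63% of all windows), and neither was the EGR element GCGNGGGCG, taken with T or G at the N (3.20%). A match is a run of letters and not a shown binding site.

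The mean of each of the 10 genes was lower in Hlirag than in diabetic, with a median log2 difference of -0.84, against 0.0021 over all genes, of which 49.8% were below 0, and -0.19 over the 9549 genes with a mean above background, of which 71.5% were below 0. Of the 10 members, 8 had a mean above background. At the criterion of the study, a fold change over 1.5 and a p under 0.05 without adjustment, here with the p of limma, Fosb, Egr1 and Atf3 were lower and no member was higher. That was 3 of 10, where 2.16% of all genes were lower, 1.62% higher and 3.78% changed in either direction (393, 294 and 687 of 18166). In a fit of the genes above background alone, 2 of 8 members and 306 of 9549 genes were lower at the criterion. No gene of the array passed adjustment: limma gave 752 genes an unadjusted p under 0.05 and none an adjusted p under 0.05, the methods' test gave 690 and none, and the adjusted p of each member was 0.78 in limma with Benjamini–Hochberg adjustment. The members shared a shape over the arrays as well as a direction. Hlirag replicate 1 lay among the diabetic arrays for most of them, while Hlirag replicates 2 and 3 lay below.

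**Figure D1:**
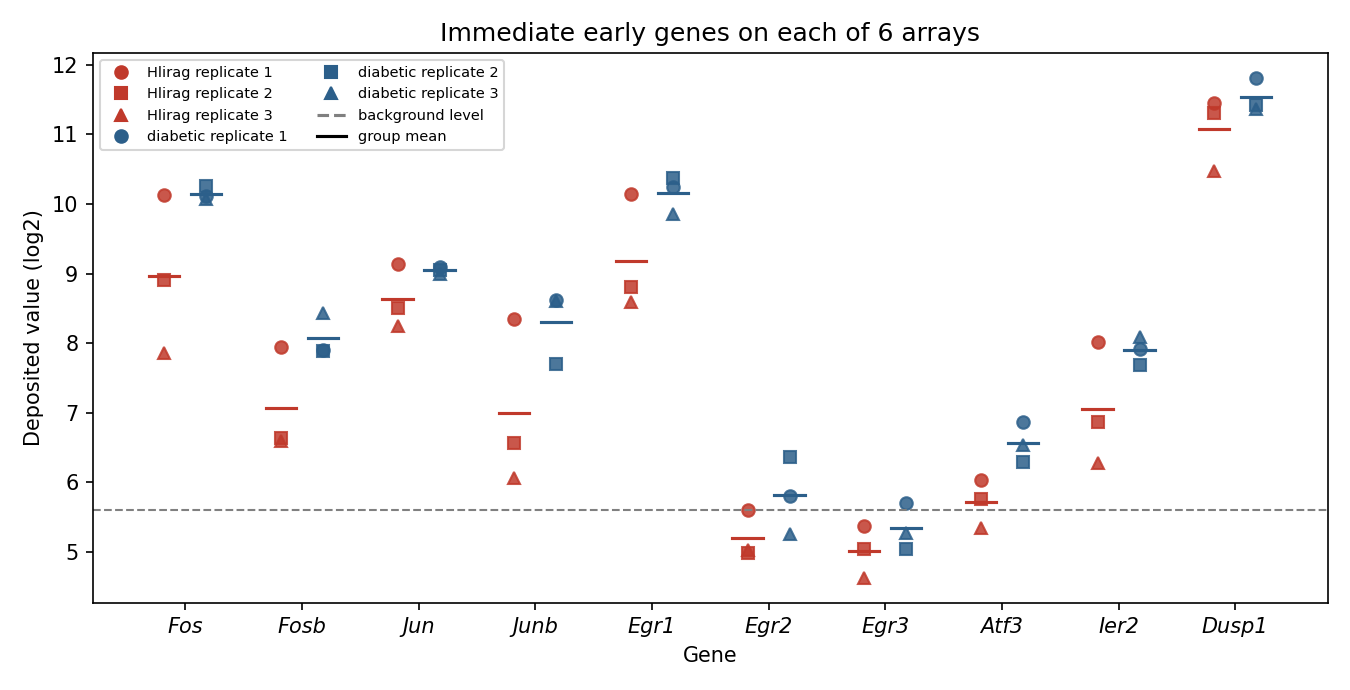
Deposited log2 value of each of the 10 genes (horizontal axis) on each array, with Hlirag in red and diabetic in blue, marker shape for the replicate, a short bar for the group mean of 3 arrays and a dashed line at the background level of 5.60. For Fos, the Hlirag arrays stand at 10.13, 8.90 and 7.86 and the diabetic arrays between 10.07 and 10.26, and only for Atf3 do all Hlirag arrays lie below all diabetic ones.

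Fos encodes the FOS subunit of AP-1, which binds DNA only as a dimer, typically with a JUN protein. It stood at 10.13, 8.90 and 7.86 on Hlirag replicates 1, 2 and 3, and at 10.11, 10.26 and 10.07 on the diabetic replicates. The diabetic arrays were thus close together (SD 0.10), whereas the Hlirag arrays spread widely (SD 1.14) and their first lay inside the diabetic range. The log2 difference was -1.19 (SE 0.52, 95% interval -2.39 to 0.01), a 2.28-fold lower mean, with an unadjusted p of 0.0519 in limma, so that Fos missed the criterion.

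Fosb encodes a second FOS protein of the same dimers. Its levels were 7.95, 6.64 and 6.59 in Hlirag and 7.90, 7.89 and 8.43 in diabetic. Again the first Hlirag array lay within the diabetic range and the other 2 lay well below it. Fosb was 2.02-fold lower in Hlirag (log2 difference -1.02, SE 0.40, 95% interval -1.94 to -0.09) and met the criterion with an unadjusted p of 0.036 in limma. It missed it in the methods' test (unadjusted p = 0.102) and with any single array left out except Hlirag replicate 1 (p from 0.0513 to 0.123).

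Jun encodes the partner of the FOS proteins, which can also pair with itself. Its levels were 9.14, 8.51 and 8.25 in Hlirag and 9.10, 9.05 and 9.0 in diabetic, where the SD was 0.05 against 0.46 in Hlirag. The order of the Hlirag arrays was that of Fos, over a narrower range, and the first of them lay just above the diabetic arrays. The log2 difference of -0.41 (SE 0.28, 95% interval -1.06 to 0.23, unadjusted p = 0.174 in limma) was not larger than the spread between replicates. A second, dimmer Jun probe set gave a difference of -0.34 and ordered the Hlirag arrays the same way (6.5, 5.84 and 5.70, with the diabetic arrays at 6.57, 5.97 and 6.51).

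Junb, a JUN protein that can curb the activity of JUN itself, stood at 8.34, 6.57 and 6.06 in Hlirag and at 8.62, 7.70 and 8.61 in diabetic. Here the diabetic arrays also varied (SD 0.53, Hlirag SD 1.20), and the first Hlirag array lay between them. The mean was 2.5-fold lower in Hlirag (log2 difference -1.32, SE 0.58, 95% interval -2.67 to 0.03), with an unadjusted p of 0.0544 in limma that missed the criterion.

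Atf3 encodes a stress-induced leucine zipper protein of the ATF/CREB family that often represses its targets. It was the only member whose groups did not overlap, at 6.03, 5.76 and 5.35 in Hlirag and 6.86, 6.29 and 6.53 in diabetic. For comparison, all Hlirag arrays lay below all diabetic arrays in 4.69% of all genes and in 7.35% of those with a mean above background. The 1.80-fold lower mean (log2 difference -0.85, SE 0.27, 95% interval -1.48 to -0.22) met the criterion with an unadjusted p of 0.0148 in limma and of 0.0301 in the methods' test. Hlirag replicate 3 was below background for this gene. Atf3 missed the criterion only without diabetic replicate 1 (unadjusted p = 0.068) and without diabetic replicates 1 and 2 (unadjusted p = 0.113), and met it under every other alternative.

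Of the EGR family, Egr1, a zinc finger activator of GC-rich promoters, stood at 10.14, 8.81 and 8.59 in Hlirag and at 10.24, 10.37 and 9.85 in diabetic. The first Hlirag array lay within the diabetic range and the other 2 more than 1 unit below it. The 1.97-fold lower mean (log2 difference -0.98, SE 0.42, 95% interval -1.95 to -0.01) met the criterion by a narrow margin, with an unadjusted p of 0.0488 in limma. It missed it in the methods' test (unadjusted p = 0.127) and in 5 other settings with all 6 arrays (p from 0.0508 to 0.11), and with any single array left out except Hlirag replicate 1 (p from 0.0507 to 0.149).

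Egr2, which besides its part in the early response is known as a regulator of myelination in Schwann cells, was at or below background on most arrays. It read 5.60, 4.98 and 5.03 in Hlirag and 5.80, 6.37 and 5.26 in diabetic, with 4 of the 6 values below the background level. The difference of -0.61 (SE 0.34, 95% interval -1.39 to 0.17, unadjusted p = 0.108 in limma) did not pass the test. This gene was the exception in the set: it followed the others least, its lowest array was Hlirag replicate 2, and its SD was larger in diabetic (0.55) than in Hlirag (0.34). The 6 nerve and Schwann cell markers averaged 8.29, 10.48 and 5.85 on the diabetic arrays, in the same order as Egr2. On the Hlirag arrays they averaged 5.29, 5.53 and 5.68, near background, with 5, 3 and 3 of the 6 markers below it, so their order there cannot be read. The 7 skeletal muscle markers had the diabetic order of Egr2 as well (10.54, 11.60 and 5.19). The part of either marker list in the Egr2 values was not tested.

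Egr3, the family member known for its role in muscle spindles, lay below background on 5 of the 6 arrays, with levels of 5.37, 5.04 and 4.63 in Hlirag and 5.70, 5.04 and 5.27 in diabetic. The groups overlapped and the difference of -0.33 (SE 0.29, 95% interval -0.99 to 0.34, unadjusted p = 0.286 in limma) was within the spread of replicates. A difference in Egr3 was not detectable at this signal.

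Ier2 stood at 8.02, 6.87 and 6.28 in Hlirag and at 7.92, 7.68 and 8.09 in diabetic. As for Fos, the diabetic arrays were close together (SD 0.20) and Hlirag replicates 2 and 3 lay below all of them, with the first inside their range. The 1.79-fold lower mean (log2 difference -0.84, SE 0.43, 95% interval -1.83 to 0.16) had an unadjusted p of 0.0874 in limma and missed the criterion.

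Dusp1, the phosphatase that ends MAP kinase signals and is itself induced by them, read 11.45, 11.31 and 10.47 in Hlirag and 11.81, 11.42 and 11.37 in diabetic. Only Hlirag replicate 3 lay clearly apart, while the second Hlirag array was just below the lowest diabetic one. The difference of -0.46 (SE 0.31, 95% interval -1.19 to 0.27, unadjusted p = 0.18 in limma) was not larger than the spread between replicates.

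Seen together, Hlirag replicate 2 lay below every diabetic array in 10 of 10 members, as did 23.4% of all genes and 29.8% of the genes with a mean above background. For Egr3, Hlirag replicate 2 and diabetic replicate 2 both rounded to 5.04. Hlirag replicate 3 also lay below every diabetic array in 10 of 10 members, but so it did in 39.3% of all genes and 65.5% of those above background. It was the lowest of all arrays in 9 members, in 36.2% of all genes and in 61.9% of those above background. Hlirag replicate 1 lay within the diabetic range in 8 of 10 members (58.0% of all genes), above it for Jun and below it for Atf3. Its distance from the diabetic mean ran from -0.21 to 0.13 in 9 members and was -0.53 for Atf3. The distance between Hlirag replicates 1 and 3, by contrast, was 2.27 for Fos, 2.28 for Junb, 1.74 for Ier2, 1.55 for Egr1 and 1.36 for Fosb, and from 0.57 to 0.98 for the remaining 5 genes.

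The spread within Hlirag was therefore the larger one: its SD exceeded that of diabetic in 9 of 10 members and in 66.2% of all genes. The median SD of the members was 0.65 in Hlirag and 0.28 in diabetic, where over all genes it was 0.38 and 0.25. After each gene was set to its own mean over the 6 arrays, the 10 members averaged 0.33, -0.55 and -0.98 on Hlirag replicates 1, 2 and 3 and 0.52, 0.32 and 0.36 on the diabetic replicates. Each member was correlated with the mean of the other 9 over the 6 arrays, as a description: Pearson's r was 0.99 for Jun, 0.97 for Fos and Ier2, 0.95 for Egr1 and Junb, 0.91 for Fosb, 0.89 for Atf3, 0.85 for Dusp1, 0.83 for Egr3 and 0.65 for Egr2. These genes were measured on the same arrays, so that the quality and cell content of an array are shared by all of them.

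**Figure D2:**
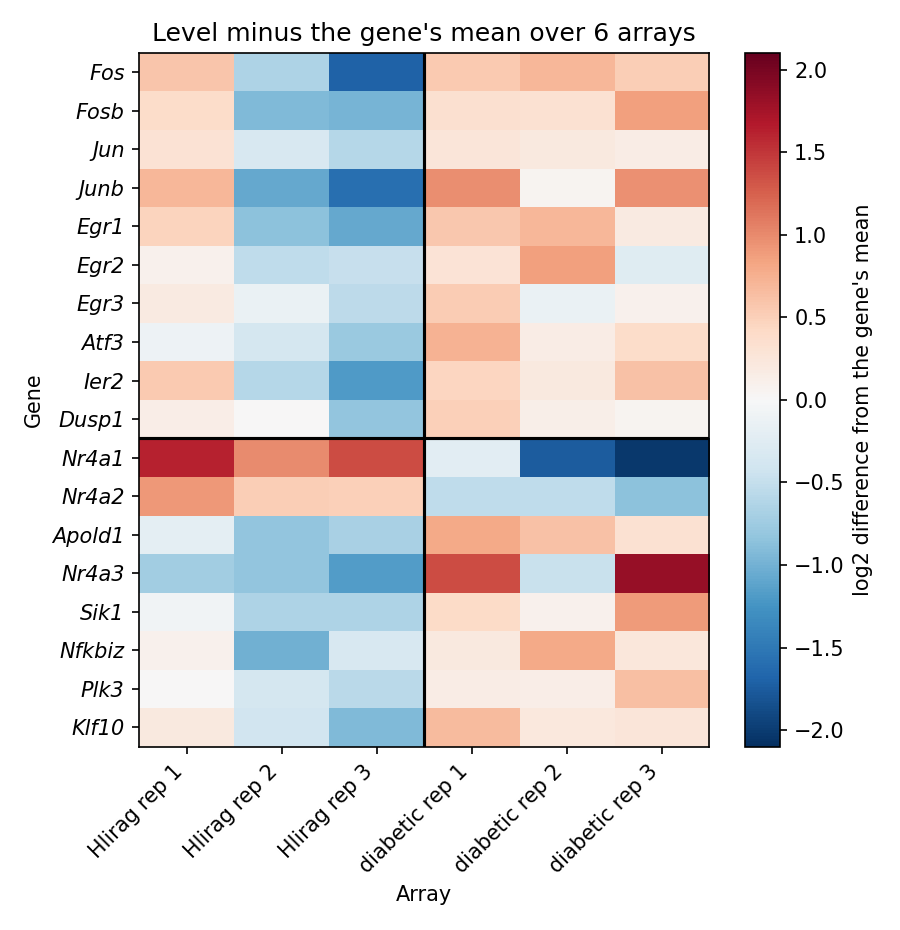
Level of each gene on each array minus that gene's mean over the 6 arrays, on the log2 scale (colour), for the 10 members above the line and the 8 other immediate early genes at the criterion below it, with Hlirag arrays left and diabetic arrays right of the vertical line. The members average 0.33, -0.55 and -0.98 on the Hlirag arrays, whereas Nr4a1 and Nr4a2 are high on all 3 of them.

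Markers of some cell types were ordered on the Hlirag arrays as the members were, and those of others were not. The 7 smooth muscle markers averaged 10.20, 9.68 and 8.43 on Hlirag replicates 1, 2 and 3 (diabetic 8.75 to 10.39), the 7 fibroblast markers 10.39, 9.74 and 8.13 (8.95 to 9.97), the 8 macrophage markers 7.78, 7.15 and 6.41 (7.29 to 7.41) and the 6 endothelial markers 8.15, 7.99 and 7.53 (7.84 to 8.16). None of these lists had a marker at the criterion. The 12 cardiomyocyte markers were highest on Hlirag replicate 1 of that group too (6.74, 5.39 and 5.28, against 7.94, 6.5 and 5.48 in diabetic). On Hlirag replicates 2 and 3 their means lay below background, as did 8 of the 12 markers on each, so the order of these arrays cannot be read. Of this list, Myh7 and Hspb7 were lower at the criterion. All 7 skeletal muscle markers were lower at it, though on diabetic replicate 3 they averaged 5.19, against 5.02 to 5.22 in Hlirag. Over all genes, 2.16% were lower at the criterion and 1.62% higher. The 6 brown adipocyte markers were lowest on Hlirag replicate 1 within that group, with means of 7.99, 9.17 and 8.88 in Hlirag and 8.41, 7.31 and 6.78 in diabetic, and Ucp1, Cidea and Cox8b were higher. The 6 nerve and Schwann cell markers given with Egr2 averaged 5.29, 5.53 and 5.68 in Hlirag, and 4 of them were lower at the criterion. Those Hlirag means lay near the background level of 5.60, with 5, 3 and 3 of the 6 markers below it, so their order cannot be read. On diabetic replicate 3 these markers averaged 5.85, near the Hlirag arrays. The 8 adipocyte markers did not follow the order either (10.85, 10.73 and 11.07 in Hlirag, 10.52 to 10.90 in diabetic), with none at the criterion. The part of cell content, and of the narrow range of values on Hlirag replicate 3, in the levels of the immediate early genes was not tested.

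**Figure D3:**
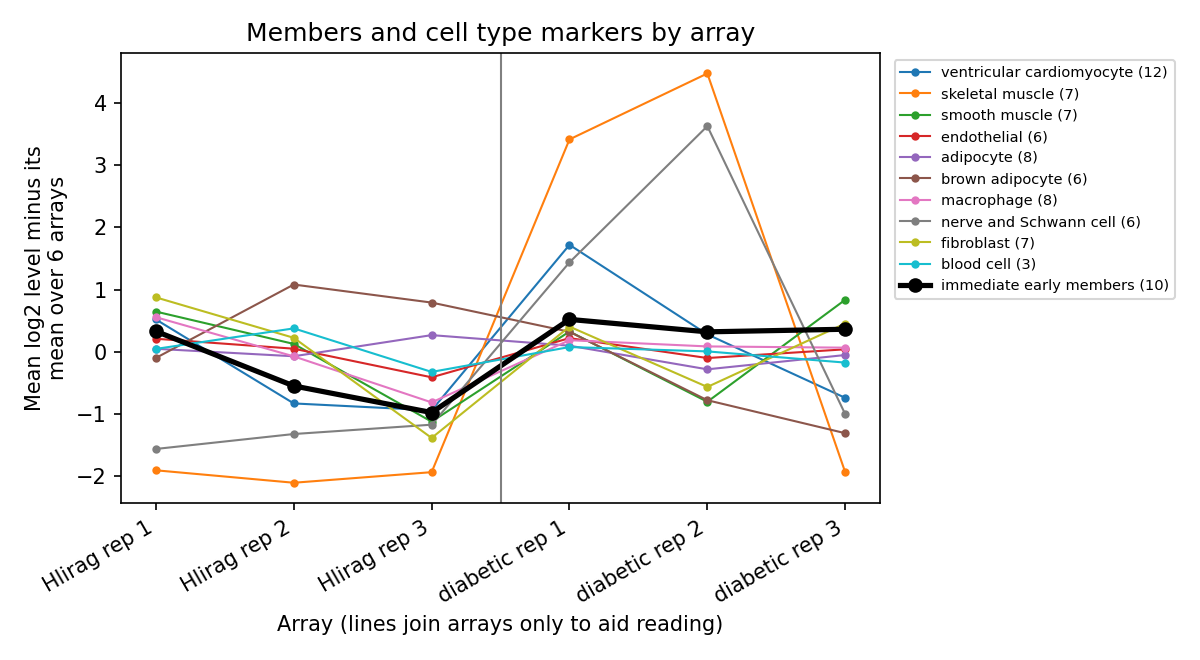
Mean log2 level of each cell type marker list and of the 10 members (heavy black line), each minus its mean over the 6 arrays, by array, with the number of measured genes in brackets. The members and the smooth muscle, fibroblast, macrophage and endothelial lists are all highest on replicate 1 and lowest on replicate 3 among the Hlirag arrays, and skeletal muscle markers are high only on diabetic replicates 1 and 2.

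How far 1 array sets these results was seen by leaving each out. Without Hlirag replicate 1, 7 of 10 members were lower at the criterion, Fos, Fosb, Jun, Junb, Egr1, Atf3 and Ier2, where 5.35% of all genes were lower. The log2 difference was then -1.77 for Fos (SE 0.35, unadjusted p = 0.00168 in limma), -1.99 for Junb (SE 0.37, unadjusted p = 0.00123), -1.46 for Egr1 (SE 0.27, unadjusted p = 0.00125) and -1.32 for Ier2 (SE 0.29, unadjusted p = 0.00297). The adjusted p of each of these genes was 0.425 in limma, and 2018 of 18166 genes met the criterion in either direction. The array left out here was the one that lay within the diabetic range for most members. Without Hlirag replicate 3, Atf3 alone was left at the criterion and the median difference of the members was -0.58, and without Hlirag replicate 2 it was likewise Atf3 alone, with a median of -0.77. Without diabetic replicate 1 no member met the criterion (limma, 0 of 10 with an unadjusted p under 0.05), without diabetic replicate 2 Junb and Atf3 did, and without diabetic replicate 3 Egr2 and Atf3. All 10 differences stayed below 0 whichever array was left out.

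**Figure D4:**
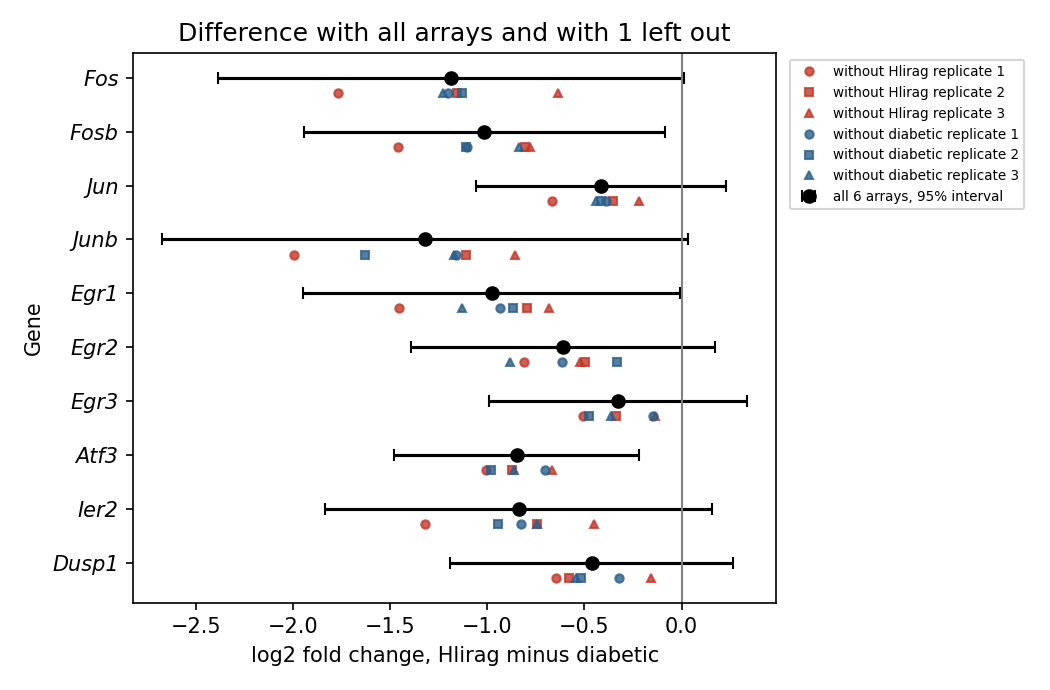
Log2 fold change of each gene, Hlirag minus diabetic, with all 6 arrays (black, with its 95% interval from limma) and with 1 array left out (coloured markers, one for each array). Every value is below 0, and leaving out Hlirag replicate 1 moves Fos from -1.19 to -1.77 whereas leaving out Hlirag replicate 3 moves it to -0.64.

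Other genes of the pathway were counted from lists of names. Among 58 further immediate early genes measured (of 65 listed), 6 were lower and 2 higher at the criterion, where 2.16% and 1.62% of all genes were. A difference below 0 was found in 43 (median -0.27), and among those with a mean above background in 36 of 48, or 75.0%, close to the 71.5% of all genes above background. The 2 higher genes were the orphan nuclear receptors Nr4a1 and Nr4a2, which are classical early response genes and are strongly induced through CREB. Nr4a1 stood at 10.43, 9.80 and 10.18 in Hlirag and 8.59, 7.07 and 6.79 in diabetic (log2 difference 2.65, SE 0.47, unadjusted p = 0.000574 in limma). Nr4a2 stood at 8.95, 8.56 and 8.54 against 7.50, 7.50 and 7.17 (1.29, SE 0.23, unadjusted p = 0.000636). In both genes Hlirag replicate 1 lay with the rest of its group, above every diabetic array. The third receptor of that family, Nr4a3, had the opposite sign, with 6.57, 6.47 and 6.14 in Hlirag and 8.67, 6.84 and 9.14 in diabetic (-1.82, SE 0.55, unadjusted p = 0.0115).

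The lower genes of that list were Nr4a3, Apold1, Sik1, Nfkbiz, Plk3 and Klf10. Apold1, an early gene of endothelial cells, read 6.74, 6.13 and 6.27 in Hlirag and 7.74, 7.56 and 7.27 in diabetic, without overlap (-1.14, SE 0.26, unadjusted p = 0.00246 in limma). Sik1, a kinase induced by cAMP, had a difference of -0.92 (unadjusted p = 0.015), Nfkbiz, a nuclear IκB protein, of -0.84 (unadjusted p = 0.0377), Plk3, a polo-like kinase, of -0.61 (unadjusted p = 0.0472) and Klf10, a TGF-β-induced zinc finger factor, of -0.76 (unadjusted p = 0.0483). Klf10 had the shape of the members, at 7.27, 6.66 and 6.14 in Hlirag and 7.73, 7.29 and 7.33 in diabetic.

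Of 24 other AP-1 and leucine zipper partners (of 27 listed), 14 had a difference below 0 (median -0.17), and of those above background 66.7% did, under the 71.5% of all such genes. Only 1 of the 24 met the criterion, about the share of all genes (3.78%). This was Nfil3, a repressor also known from the circadian clock, at 5.50, 6.17 and 5.65 in Hlirag and 6.93, 6.61 and 7.10 in diabetic (-1.11, SE 0.27, unadjusted p = 0.00354 in limma). Crem, whose short form blocks cAMP response elements, did not overlap between groups but missed the criterion (-0.63, unadjusted p = 0.0517). Jund, the JUN protein that is expressed without a stimulus, read 8.57, 7.68 and 7.58 against 9.14, 7.93 and 9.48 (-0.91, SE 0.45, unadjusted p = 0.0821). Batf2, the last of the 4 with the lowest p, was below background on all arrays.

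Of 34 genes of the MAP kinase, SRF and CREB pathways (of 42 listed), 29 had a difference below 0 (median -0.40), and of the 32 above background 27 did (84.4%, against 71.5% of all such genes). At the criterion 4 were lower, where 2.16% of all genes were. They were Mapk12, a p38 kinase of striated muscle (-1.28, unadjusted p = 0.0183 in limma), Braf, the kinase above MEK (-0.72, unadjusted p = 0.025), Rps6ka2, a ribosomal S6 kinase (-1.11, unadjusted p = 0.0345), and Mrtfa, a coactivator of SRF (-0.72, unadjusted p = 0.0492). Mapk12 read 6.09, 5.77 and 4.71 in Hlirag and 6.63, 7.42 and 6.35 in diabetic, and Rps6ka2 read 6.39, 5.76 and 5.95 against 6.97, 8.09 and 6.38. On the diabetic arrays both stood in the order of the skeletal muscle markers (10.54, 11.60 and 5.19), whose part in these values was not tested. Among 15 feedback inhibitors of MAP kinases and EGR proteins (of 16 listed), 12 were below 0 (median -0.29), with 78.6% of those above background against 71.5% of all such genes, and Dusp4, a nuclear phosphatase of the family of Dusp1, was the 1 at the criterion (-1.05, unadjusted p = 0.0425), where 3.78% of all genes were. Its levels overlapped between groups, at 6.69, 7.27 and 6.75 in Hlirag and 8.61, 6.98 and 8.26 in diabetic. The next genes of that list by p, Dusp5 (-0.49, unadjusted p = 0.0703), Spred1 (-0.60, unadjusted p = 0.137) and Dusp10 (0.32, unadjusted p = 0.157), missed it.

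The genes whose pattern was most like that of the members were sought among 5215 others with a mean above background and a range over the arrays of at least 1. Pearson's r with the mean of the members over the 6 arrays was 0.997 for Chst3, 0.996 for Synm and 0.993 for Mettl7a, Mideas and Palm. Synm, which encodes the intermediate filament protein synemin of muscle, read 7.46, 6.58 and 6.0 in Hlirag and 7.66, 7.57 and 7.57 in diabetic, and was the only one of the 5 at the criterion (-0.93, unadjusted p = 0.0364 in limma). The pattern was a common one on these arrays: r was over 0.9 for 450 of the 5215 genes and over 0.8 for 1502, and 16 of 33 other immediate early genes among them were over 0.8.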

How the data were processed

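RNA of 3 Hlirag and 3 diabetic samples was measured on 1-colour Affymetrix Rat Gene 2.0 ST arrays. The deposited values are log2 levels, 1 per probe set and array, which the authors made with Expression Console 1.4.1; the summarisation, the normalization and the genome build are not given in the sources used here, and only their range shows the scale. The medians over the 36685 probe sets ran from 4.94 to 5.39, so that the centring stays unknown. No slide or scan date was given, so no batch could be examined.

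The brightest of the probe sets with 1 gene symbol stood for each of 18166 genes. The groups were compared with limma 3.58.1 (R 4.3.3) by lmFit and eBayes on the group alone, with Benjamini–Hochberg adjustment over all genes. As a check of the code only, the comparison was also run on simulated arrays with known changes. Their noise was independent and alike in both groups, unlike the spread in these data. The methods' test is the per-gene analysis of variance that the study names, at the same limits. Arrays have no read depth, and their number limits the precision. Genes named were the 10 members, the 4 genes with the lowest unadjusted p of each other list, and the 5 genes most correlated with the mean of the members among those above the background level with a range of at least 1. Other genes at the criterion were named after their values were seen. The members and all lists were chosen with earlier results of these data known, so no list was tested as such and no p was adjusted over a list alone. Gene numbers of all 10 members matched the RefSeq table with the same symbol, and promoter windows came from RefSeq (GRCr8). The alternatives changed the test (the methods' test, the replicate number as a block, array quality weights, a variance prior that follows intensity), the scaling (quantile, or centring on the median), the genes (dim ones left out or raised to background), the probe sets (every one fitted, or their mean per gene) and the arrays (each left out in turn, and diabetic replicates 1 and 2 together). numpy 2.4.6, pandas 2.3.3 and matplotlib 3.10.9 made the tables and figures.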

Additional observations from a re-analysis of the deposited data

How the results depend on the processing

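No member changed sign under any alternative, and the median difference of the members ran from -0.57 with array quality weights to -1.16 without Hlirag replicate 1. The count of members at the criterion, 3, was 1 in the methods' test, with array quality weights and with values raised to background, 4 with quantile normalization (Fos added, unadjusted p = 0.0409 in limma), 0 (limma, none with an unadjusted p under 0.05) without diabetic replicates 1 and 2, where the lone diabetic sample is assumed to vary like the Hlirag samples, and 0 to 7 with each array left out in turn. Beside the settings named with it above, Fosb missed the criterion with array quality weights (unadjusted p = 0.109 in limma), with values raised to background (unadjusted p = 0.0872) and without diabetic replicates 1 and 2 (unadjusted p = 0.0707), where Egr1 missed it too (unadjusted p = 0.349). The array quality weights did not converge and gave diabetic replicate 1 a weight of 9.20, against 0.27 to 0.93 for the others. Over all genes the count of 687 was 236 in the methods' test, 448 with the filter on dim genes, 181 with values raised to background, 286 without diabetic replicates 1 and 2, and 226 to 2018 with each array left out. An adjusted p under 0.05 in limma was reached by 29 genes without diabetic replicate 3 and by 3 without diabetic replicate 2, none of them a member. No gene reached it with any other single array left out. Median centring turned the split from 294 higher and 393 lower to 410 and 340. The filter left out Egr2 and Egr3, whose means lie below background. The other AP-1 and leucine zipper genes, 1 at the criterion, gave 2 with array quality weights, 3 without diabetic replicates 1 and 2, and 1 to 5 with each array left out. The other immediate early genes, 8 at the criterion, gave 4 in the methods' test, 4 with values raised to background, and 4 to 19 with each array left out. The MAP kinase, SRF and CREB list, 4 at the criterion, gave 1 in the methods' test, 2 with array quality weights, 2 with values raised to background, 1 without diabetic replicates 1 and 2, and 1 to 11 with each array left out. The feedback inhibitors, 1 at the criterion, gave 0 in the methods' test, with quantile normalization, with median centring and with values raised to background, 2 with array quality weights, 2 without diabetic replicates 1 and 2, and 0 to 1 with each array left out. Each of these ranges had its highest value without Hlirag replicate 1, which the feedback inhibitors also had without 3 other arrays. The cause of these shifts was not tested.

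The groups share replicate numbers, but same-numbered samples deviated together only in part (r of 0.32, 0.04 and 0.15 over genes), and Hlirag replicate 2 was most like diabetic replicate 1 (0.16), so that the numbers were not taken to pair the samples. With the replicate block, 1117 genes and 5 members met the criterion (Fos and Junb added, unadjusted p = 0.0374 and 0.027 in limma), as did 4 of the other AP-1 genes, 7 of the MAP kinase list and 0 of the feedback inhibitors, and no gene passed an adjusted p under 0.05.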
